A study of Mus musculus with 24 samples.

Results

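The 10 Cyp4 genes described here are fatty acid hydroxylases of the cytochrome P450 family 4, chosen by gene symbol among the 78298 gene IDs of the count table. They comprise 6 genes of the Cyp4a subfamily (Cyp4a10, Cyp4a14, Cyp4a12a, Cyp4a12b, Cyp4a31 and Cyp4a32), 3 of the Cyp4f subfamily (Cyp4f13, Cyp4f14 and Cyp4f15) and Cyp4v3. Liver messenger RNA was sequenced from 24 mice, of which 6 were normal controls and 18 belonged to a steatohepatitis model, a condition in which the liver stores fat and is inflamed. Each mouse gave 1 library, so n counts mice throughout. The labels give no strain, sex, age, diet, induction or time of sampling for either group, and the 18 model mice form 1 group.

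Cyp4 enzymes add a hydroxyl group to the terminal (omega) carbon of a fatty acid, after which alcohol and aldehyde dehydrogenases turn it into a dicarboxylic acid that peroxisomes shorten. Cyp4a genes are textbook targets of the nuclear receptor PPARα, the fatty acid sensor of the hepatocyte, and their messenger RNA follows the feeding and day rhythm of the liver. Cyp4a12a and Cyp4a12b are expressed more in male than in female mice, under the pulsed male pattern of growth hormone. Cyp4f enzymes act on long fatty acids and on eicosanoids such as leukotriene B4, and Cyp4v3 is the mouse counterpart of human CYP4V2, whose loss causes Bietti crystalline dystrophy of the retina.

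The members share the stretch of the P450 fold that holds the heme iron, and this stretch shows both their kinship and why reads of some of them are hard to tell apart. The 60 coding bases below surround the codon of the cysteine that binds the heme, written 5′ to 3′ from the GENCODE M21 transcripts of the earlier build GRCm38, with that codon in capitals.
Cyp4a10: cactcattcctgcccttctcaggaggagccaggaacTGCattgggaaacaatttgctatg
Cyp4a12a: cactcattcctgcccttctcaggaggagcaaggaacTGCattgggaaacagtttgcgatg
Cyp4a14: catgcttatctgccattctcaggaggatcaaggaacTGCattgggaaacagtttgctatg
Cyp4f13: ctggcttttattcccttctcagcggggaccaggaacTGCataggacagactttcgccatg
Cyp4f14: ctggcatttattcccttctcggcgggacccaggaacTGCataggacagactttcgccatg
Cyp4f15: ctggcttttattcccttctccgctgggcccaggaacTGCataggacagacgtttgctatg
Cyp4v3: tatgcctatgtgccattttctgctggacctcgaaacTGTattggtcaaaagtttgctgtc
Cyp4a31 and Cyp4a32 have the same 60 bases as Cyp4a10, and Cyp4a12b has those of Cyp4a12a. Compared with Cyp4a10 the stretch differed at 3 bases in Cyp4a12a, 9 in Cyp4a14, 20 in Cyp4f13, 19 in Cyp4f14, 19 in Cyp4f15 and 23 in Cyp4v3.

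Over the whole coding sequence Cyp4a10 was 97.2% identical to Cyp4a32 and 96.6% to Cyp4a31, and Cyp4a12a was 98.5% identical to Cyp4a12b. Cyp4a14 stood further off, at 75.1% identity to Cyp4a10. A read can be given to 1 copy only where the copies differ, as in coding bases 200 to 259 of the first 3, where capitals mark the 9 bases at which they are not all alike.
Cyp4a10: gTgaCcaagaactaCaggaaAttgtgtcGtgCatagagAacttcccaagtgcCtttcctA
Cyp4a31: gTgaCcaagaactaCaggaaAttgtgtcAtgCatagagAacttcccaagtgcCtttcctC
Cyp4a32: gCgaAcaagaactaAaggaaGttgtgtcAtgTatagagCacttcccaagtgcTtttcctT
The closest pair differs at only 23 of 1527 coding bases, of which 4 lie in bases 624 to 683, with the differing bases in capitals.
Cyp4a12a: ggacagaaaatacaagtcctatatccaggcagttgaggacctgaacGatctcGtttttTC
Cyp4a12b: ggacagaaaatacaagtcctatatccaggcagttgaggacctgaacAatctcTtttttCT
Of all windows of 100 coding bases, 41.5% in Cyp4a12a occurred unchanged in another listed Cyp4 gene, against 17.9% in Cyp4a10, 13.8% in Cyp4a31 and 20.1% in Cyp4a32. No such window of Cyp4a14, Cyp4f13, Cyp4f14, Cyp4f15 or Cyp4v3 was shared. The sources used here do not give how the authors assigned reads that fit several copies, so the values of Cyp4a10, Cyp4a31, Cyp4a32, Cyp4a12a and Cyp4a12b as single genes are uncertain.

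In GRCm39, the build of the count table, the 6 Cyp4a members lie on chromosome 4 between base 115156243, the start of Cyp4a12a, and base 115478799, the end of Cyp4a32. Cyp4a14 (115343397 to 115353339) is on the minus strand and faces Cyp4a10 (115375461 to 115390846), and the other 4 are on the plus strand. Cyp4f15 (32904601 to 32922326, plus strand), Cyp4f14 (33124044 to 33136316, minus) and Cyp4f13 (33143662 to 33166376, minus) lie on chromosome 17. Cyp4v3 spans bases 45757981 to 45786253 of chromosome 8 on the minus strand. An unnamed antisense gene shares 218 exonic bases with Cyp4a14 and had 441 counts over all 24 mice, and Gm45753 shares 313 bases with Cyp4v3 and had 22.

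Library totals were 31.6 to 58.4 M counts, and no member had fewer than 468 counts in any mouse. Levels are given as CPM, the count of a gene relative to the total of its library, with totals scaled by TMM factors, which were 0.813 to 0.891 in controls and 0.99 to 1.16 in model mice. The edgeR quasi-likelihood test with Benjamini-Hochberg adjustment over 17456 genes called 60.0% of them at an adjusted p below 0.05, 31.2% higher and 28.8% lower in model mice. By limma-voom 58.9% were called, 30.4% higher and 28.5% lower. The share of higher genes among all calls was 52.0% as scaled here, 62.8% under upper-quartile scaling and 85.8% where libraries were scaled by their totals, a scaling that raised the median log2 fold change over the tested genes from 0.01 to 0.34. Messenger RNA of Y-linked genes was present in all 24 mice (Ddx3y, 14.3 to 47.9 CPM), while Xist did not exceed 0.257 CPM. Hepatocyte markers such as Alb and Cps1 fell in 9 of 11 cases (median -0.67 on the log2 scale), and their summed level was 138100 to 203900 CPM in controls and 70630 to 133800 in model mice. Macrophage markers such as Mmp12, Gpnmb and Cd5l rose in 15 of 16 cases, from a summed 65.0 to 162.4 CPM to 355.1 to 1533 CPM. In these bulk samples, fewer hepatocytes and less RNA per hepatocyte cannot be told apart, and the part of either in the values below was not tested.

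Of the Cyp4a genes 5 of 6 were lower in model mice and none was higher, against a background of 28.8% of all genes tested called lower. Of the Cyp4f genes 2 of 3 were lower and none was higher, and Cyp4v3 was slightly lower. The median log2 fold change was -1.79 over the Cyp4a members and -0.72 over the Cyp4f members, against 0.01 over all genes tested. Groups that did not overlap, with every model mouse below every control, were seen for Cyp4a31 and Cyp4f13, against 6.02% of all genes tested (9.67% did not overlap with model mice higher, and 15.7% in either direction).

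**Figure D1:**
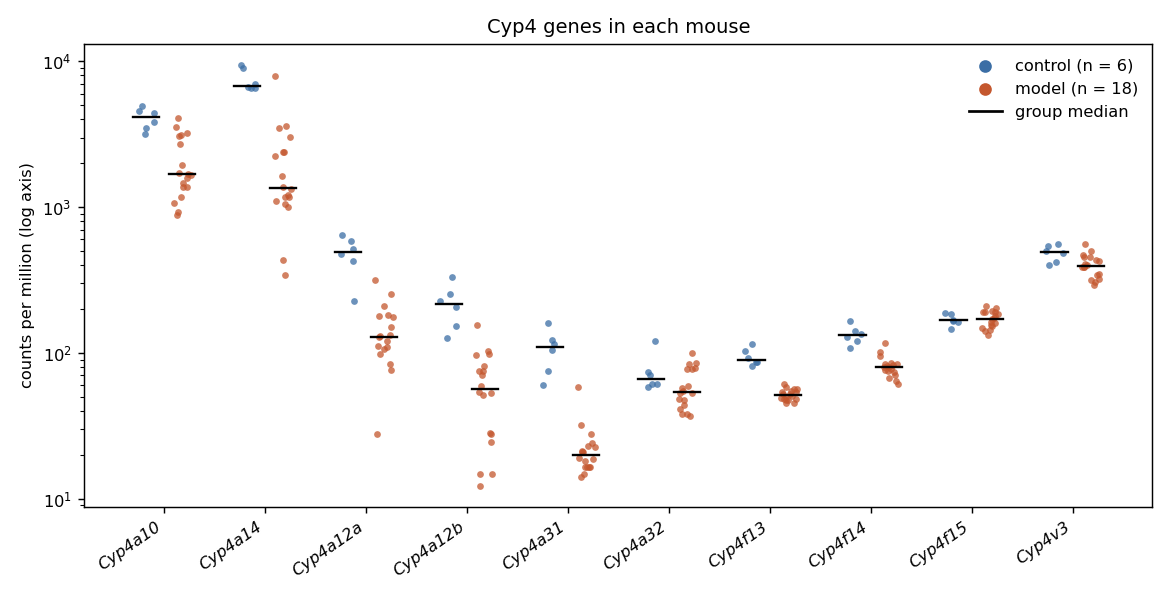
Level of each Cyp4 gene in each mouse, in CPM on a log axis. Points are mice (6 controls, 18 model mice) and the horizontal bars are group medians. Cyp4a14 and Cyp4a10 led in both groups, and the model mice of Cyp4a14 spread from 340.2 to 7911 CPM.

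Cyp4a14 and Cyp4a10, the PPARα-driven omega-hydroxylases of long fatty acids, were the most abundant members in both groups. Cyp4a14 was at 6584, 6517, 6650, 8951, 9439 and 6987 CPM in controls 1 to 6, and in model mice at a lowest of 340.2, a median of 1352 and a highest of 7911 CPM. All but 1 model mouse lay below every control, and model mouse 10 lay inside the control range. The mean fell from 7521 ± 1316 CPM (SD, n = 6) to 2050 ± 1750 CPM (SD, n = 18), a log2 fold change of -1.88 (SE 0.40, edgeR quasi-likelihood adjusted p = 0.000268).

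Cyp4a10 was at 3475, 3863, 4536, 4444, 4929 and 3163 CPM in controls 1 to 6, and in model mice at a lowest of 888.5, a median of 1679 and a highest of 4064 CPM. The groups overlapped, with 15 of 18 model mice below every control. The log2 fold change was -1.0 (SE 0.26, edgeR adjusted p = 0.00184).

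Model mice differed among themselves in Cyp4a14 far more than controls did. Their highest and lowest values were 23.3-fold apart, against 1.45-fold among the controls, which are fewer. On the log2 scale the SD was 1.09 in model mice, a spread that 1.21% of all genes tested exceeded, and 0.241 in controls, which 58.6% of genes exceeded. Model mouse 10 had the highest Cyp4a14 and was also the library that correlated least with its own group (mean r of 0.969). Without it, the SD among model mice was 0.945, the highest and lowest were 10.6-fold apart, and the log2 fold change of Cyp4a14 was -2.15 (edgeR adjusted p = 5.09e-06). The lowest mice, model 13 and model 16 at 340.2 and 434.5 CPM, were also the lowest for Cyp4a10, at 888.5 and 928.6 CPM. This spread was not particular to Cyp4a14. For Cyp4a12b the SD was 1.08 in model mice, which 1.23% of genes exceeded, and 0.503 in controls. Without model mouse 10 the SD of Cyp4a12b was 1.11. In model mice the SDs of Cyp4a12a and Cyp4a10 were 0.7675 and 0.687.

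The order of the leading pair per exonic length differed between the groups. CPM per kilobase of exon put Cyp4a14 at 2892 ± 506 and Cyp4a10 at 1929 ± 323 in controls (SD, n = 6), a gap larger than the sum of their SDs. In model mice Cyp4a10 stood at 964 ± 469 and Cyp4a14 at 788 ± 673 (SD, n = 18), a gap smaller than the sum of their SDs. Within single mice, Cyp4a14 was above Cyp4a10 per kilobase in 6 of 6 controls and in 2 of 18 model mice. As a share of all Cyp4a messenger RNA per kilobase, Cyp4a14 made up 55.6% ± 3.60 in controls and 38.1% ± 10.2 in model mice, and Cyp4a10 made up 37.1% ± 3.02 and 53.3% ± 7.03. These shares are given as a description, with no test.

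Cyp4a12a and Cyp4a12b, the male-biased pair that makes 20-HETE from arachidonic acid, were about as strongly reduced as Cyp4a14. Cyp4a12a was at 478.9, 227.5, 587.5, 512.2, 642.4 and 427.4 CPM in controls 1 to 6, and in model mice at a lowest of 27.64, a median of 129.3 and a highest of 314.1 CPM. Control 2 was the low control and the only one within the range of model mice, so that 16 of 18 model mice lay below every control. The log2 fold change was -1.74 (SE 0.28, edgeR adjusted p = 9.02e-06).

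Cyp4a12b was at 207.0, 127.2, 254.1, 226.1, 333.8 and 152.4 CPM in controls 1 to 6, with control 2 again the lowest. Model mice ranged from 12.28 to 156.3 CPM with a median of 56.64, and 17 of 18 lay below every control. The log2 fold change was -1.83 (SE 0.38, edgeR adjusted p = 0.000209). With the counts of the pair summed, which removes the question of which copy a read came from, it was -1.77 (edgeR adjusted p = 8.73e-06). Model mouse 8 was the highest of its group for both copies.

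Cyp4a31 and Cyp4a32 are the near copies of Cyp4a10, and their difference was not tested. Cyp4a31 was at 60.35, 103.8, 160.8, 114.5, 121.7 and 75.41 CPM in controls 1 to 6, and in model mice at a lowest of 14.17, a median of 19.91 and a highest of 58.61 CPM, in model mouse 10. The groups did not overlap, and the log2 fold change of -2.25 (SE 0.21, edgeR adjusted p = 3.86e-09) was the lowest among the 10 members. Cyp4a32 was at 74.2 ± 23.5 CPM (SD, n = 6) in controls and 59.5 ± 19.2 CPM (SD, n = 18) in model mice, and its log2 fold change of -0.32 (SE 0.20, edgeR adjusted p = 0.162) did not pass the test. Without control 3, the highest control at 120.4 CPM, it was -0.13 (edgeR adjusted p = 0.585), and with the replicate number as a block it was -0.56 and passed (edgeR adjusted p = 0.00589), although those numbers do not pair the mice.

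Both had few counts beside those of Cyp4a10. Cyp4a31 had 2.57% ± 0.58 of the Cyp4a10 counts in controls (SD, n = 6) and 1.24% ± 0.49 in model mice (SD, n = 18). Cyp4a32 had 1.82% ± 0.43 in controls and 3.18% ± 0.69 in model mice. The shares of the 2 copies thus differed between the groups in opposite directions, and the part of misassigned reads was not tested. With the counts of all 3 summed the log2 fold change was -1.01 (edgeR adjusted p = 0.00151), close to that of Cyp4a10, which holds nearly all of those counts.

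Cyp4f13 and Cyp4f14 were both lower in model mice, with little spread between mice. Cyp4f13 was at 80.92, 86.73, 92.49, 86.32, 115.4 and 103.6 CPM in controls 1 to 6, and in model mice at a lowest of 44.99, a median of 51.40 and a highest of 60.92 CPM. The groups did not overlap, and the log2 fold change was -0.87 (SE 0.07, edgeR adjusted p = 6.63e-11), the smallest p of the 10 members.

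Cyp4f14, which inactivates leukotriene B4 by omega-hydroxylation, was at 127.7, 135.5, 120.0, 108.0, 141.7 and 165.0 CPM in controls 1 to 6. Model mice ranged from 61.25 to 117.5 CPM with a median of 80.30, and all but model mouse 12 lay below every control. The log2 fold change was -0.72 (SE 0.10, edgeR adjusted p = 6.95e-07).

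Cyp4f15 was the only Cyp4f member that did not pass the test. Its level was 169 ± 15.7 CPM (SD, n = 6) in controls and 171 ± 23.2 CPM (SD, n = 18) in model mice. The control range of 144.9 to 186.2 CPM lay within the model range of 132.8 to 211.2 CPM. Of the 18 model mice, 6 lay above every control and 3 below every control. The log2 fold change was 0.02 (SE 0.09, edgeR adjusted p = 0.841). Its direction depended on the scaling: with library totals alone it was 0.35 and passed the test as higher (adjusted p = 0.000126). Cyp4f13 and Cyp4f14 were called lower under that scaling too.

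Cyp4v3 was at 485 ± 63.8 CPM (SD, n = 6) in controls and 400 ± 71.6 CPM (SD, n = 18) in model mice, with 10 of 18 model mice below every control. The log2 fold change of -0.28 (SE 0.11, edgeR adjusted p = 0.0310) passed the test narrowly. The call was lost without control 1, control 3 or control 5 (adjusted p = 0.0581, 0.0870 and 0.0730) and with upper-quartile factors (adjusted p = 0.143), and scaling by library totals gave a value of 0.04. Cyp4v3 is therefore given as a small difference whose direction depends on the scaling.

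Per exonic length, the order of levels in controls after the leading pair was Cyp4a12a at 197.9, Cyp4v3 at 127.3, Cyp4a12b at 90.5, Cyp4f15 at 74.03, Cyp4f14 at 54.98, Cyp4a32 at 48.32, Cyp4a31 at 42.29 and Cyp4f13 at 21.22 CPM per kilobase. Among neighbours in this order, the gap exceeded the sum of the SDs between Cyp4a10 and Cyp4a12a, between Cyp4f15 and Cyp4f14 and between Cyp4a31 and Cyp4f13, and not between the others. In model mice the order was Cyp4v3 at 105.0, Cyp4f15 at 75.15, Cyp4a12a at 59.35, Cyp4a32 at 38.75, Cyp4f14 at 33.46, Cyp4a12b at 25.4, Cyp4f13 at 11.63 and Cyp4a31 at 8.90 CPM per kilobase. There only the gap between Cyp4v3 and Cyp4f15 exceeded the sum of the SDs. Reads lost because they fit several copies would lower the per-length levels of the near copies, so these positions are uncertain for them.

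The Cyp4a and Cyp4f subfamilies were compared within each mouse, as a ratio that does not depend on how libraries are scaled. The ratio used the member of each with the highest mean level per kilobase over all 24 mice, Cyp4a14 and Cyp4f15. Cyp4a14 led there through the controls, at 2892 against 1929 CPM per kilobase for Cyp4a10. In model mice Cyp4a10 led, at 964 against 788, and stood above Cyp4a14 in 16 of 18 mice. Cyp4f15, with a log2 fold change of 0.02, was also the only Cyp4f member not called lower. Cyp4f13 and Cyp4f14 were at -0.87 and -0.72. The log2 ratio of Cyp4a14 to Cyp4f15 counts was 5.46 ± 0.23 in controls (SD, n = 6, range 5.16 to 5.76). It was 3.21 ± 0.96 in model mice (SD, n = 18, range 1.20 to 5.23). Controls thus had 44.2 times as many counts of Cyp4a14 as of Cyp4f15, and model mice 9.23 times, as geometric means. The difference of -2.26 had a two-sided exact permutation p of 1.49e-05 over every division of the mice into 6 and 18, and 17 of 18 model mice lay below every control. This p does not allow for the choice of Cyp4a14, which used the same values and favored a gene high in controls. It therefore describes these 2 genes and is no test of the subfamilies. With all members of each subfamily summed, which needs no choice of a leading member, the difference was smaller, at -1.32 (two-sided exact permutation p = 8.17e-05). Summed per kilobase, Cyp4a members stood at 5200 ± 839 in controls and 1885 ± 1079 in model mice, and Cyp4f members at 150.2 ± 13.8 and 120.2 ± 13.7.

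**Figure D2:**
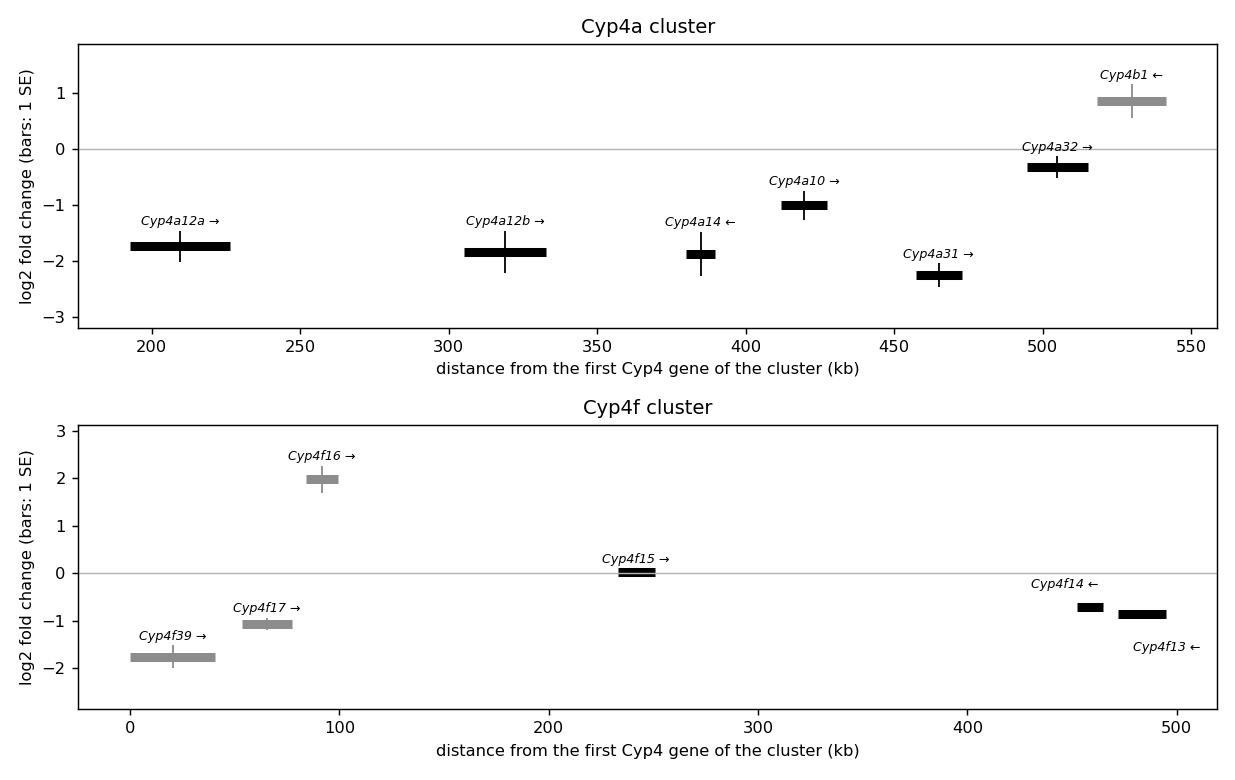
Log2 fold change of each tested Cyp4 gene against its place in the cluster, as distance in kilobases from the first Cyp4 gene listed there. Horizontal bars span the gene, vertical lines are 1 standard error, black marks the members, gray the other Cyp4 genes, and arrows give the strand. Cyp4a32 and Cyp4b1 at the right end of the Cyp4a cluster, and Cyp4f15 and Cyp4f16 in the Cyp4f cluster, stood apart from lower neighbors.

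Other Cyp4 genes did not all move with the members, as the map of fold changes by position shows for the Cyp4a and Cyp4f clusters. Of 10 further Cyp4 genes measured, 5 had enough counts to test, with 3 higher and 2 lower, against 31.2% and 28.8% of all genes. Cyp4f17, the most abundant of them per kilobase, was lower at 13.3 ± 2.47 CPM in model mice against 27.9 ± 7.34 in controls (-1.06 on the log2 scale, SE 0.12, edgeR adjusted p = 6.22e-08). Cyp4b1, which lies beside Cyp4a32 and is known from lung more than from liver, rose from 3.69 ± 1.25 to 6.67 ± 3.06 CPM (0.85 on the log2 scale, SE 0.30, edgeR adjusted p = 0.0165). Cyp4f18, the leukotriene hydroxylase of myeloid cells, lies on chromosome 8, outside both clusters. It rose from 0.193 to 1.82 CPM (log2 fold change 3.21, edgeR adjusted p = 4.18e-08), while macrophage markers rose in 15 of 16 cases. From control levels of 1.09 and 1.24 CPM, Cyp4f16 rose (1.98) and Cyp4f39 fell (-1.76) on the log2 scale (edgeR adjusted p = 1.28e-06 and 8.40e-07). Cyp4f18, Cyp4f16 and Cyp4f39 are named after their values were seen.

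The time of day at which the mice were sampled is not in the labels, and clock genes differed between the groups. In controls against model mice, Arntl, the activator of the clock, was at 20.4 ± 10.1 and 3.54 ± 0.70 CPM, and its output gene Dbp at 10.0 ± 15.1 and 63.9 ± 10.1 CPM. Nr1d1, a repressor of Arntl, was at 20.7 ± 12.9 and 90.2 ± 12.3 CPM. An index was formed as the mean log2 CPM of Arntl, Clock and Npas2 minus that of Dbp, Nr1d1 and Per3. It lay between -0.97 and 1.42 in controls 1 to 5, at -4.22 in control 6 and between -4.26 and -3.04 in the 18 model mice. On this index control 6 lay within the range of the model mice, but its low value rested in part on Npas2, at 0 counts in that mouse. Without Npas2 the index was 1.29 to 3.42 in controls 1 to 5, -1.66 in control 6 and -2.82 to -1.93 in model mice, so that no control overlapped them. Of 20 clock genes, control 6 was inside the range of the model mice for 4, below it for 4 and above it for 12, including Cry1 at 16.1 CPM against at most 5.96. Apart from control 6, the groups did not overlap on either index, so that group and clock state cannot be told apart.

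Control 6, which stood apart from the other controls in clock genes, had the lowest Cyp4a10 and Cyp4a32 and the highest Cyp4f14 of the controls. For the other members it lay inside their range. Its Cyp4a14, at 6987 CPM, was above 17 of 18 model mice, its Cyp4a12a, at 427.4 CPM, and its Cyp4a31, at 75.41 CPM, were above all 18, and its Cyp4a10, at 3163 CPM, was the lowest of the controls and above 15 of 18. Its Cyp4f14, at 165.0 CPM, was the highest of all 24 mice. Cyp4a32, at 57.87 CPM, was above 11 of 18 model mice. Its Cyp4f13 was above all 18, its Cyp4a12b above 17, its Cyp4v3 above 16 and its Cyp4f15 above 8. Control 6 is 1 mouse singled out by its clock genes, so these levels are a description, and the part of the clock was not tested.

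**Figure D3:**
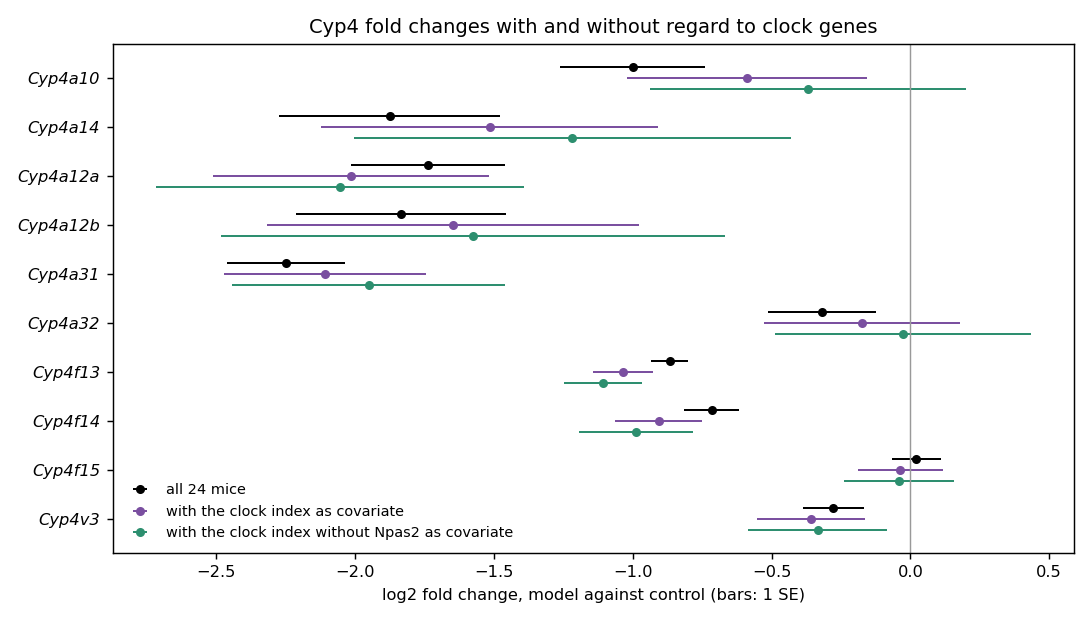
Log2 fold change of each Cyp4 gene, model against control, with bars of 1 standard error, for all 24 mice with the group alone, with the clock index as a covariate and with the clock index without Npas2 as a covariate. With either covariate the values of Cyp4a10 lay nearer to 0 and those of Cyp4f13 and Cyp4f14 further from it.

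With the clock index as a covariate, edgeR called 2 of 6 Cyp4a genes lower, against 17.4% of all genes called lower in that fit (21.1% higher, 38.5% in either direction), and the same 2 of 3 Cyp4f genes. Cyp4a12a was at -2.01 (adjusted p = 0.00279) and Cyp4a31 at -2.11 (0.000101), and Cyp4f13 and Cyp4f14 at -1.03 (1.71e-07) and -0.91 (8.87e-05). The calls of Cyp4a10 (log2 fold change -0.59, adjusted p = 0.294), Cyp4a14 (-1.52, 0.0514), Cyp4a12b (-1.65, 0.0549) and Cyp4v3 (-0.36, 0.148) were lost. With the index without Npas2 as covariate, an alternative chosen after seeing the data, the same 2 Cyp4a genes were called, Cyp4a12a at -2.05 (adjusted p = 0.0242) and Cyp4a31 at -1.95 (0.00525), and again Cyp4f13 at -1.11 (8.99e-06) and Cyp4f14 at -0.99 (0.00109), against 12.5% of all genes called lower (14.7% higher, 27.1% in either direction). Cyp4a10 was at -0.37 (adjusted p = 0.669) and Cyp4a14 at -1.22 (adjusted p = 0.263) there. Of the 5 other Cyp4 genes tested, 3 were higher and 2 lower with the first index, and 1 was higher and 0 lower with that index without Npas2. Whether the fold changes themselves differ between these fits, which share all mice, was not tested. Both covariate fits lean on control 6, the only control with an index near those of the model mice.

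**Figure D4:**
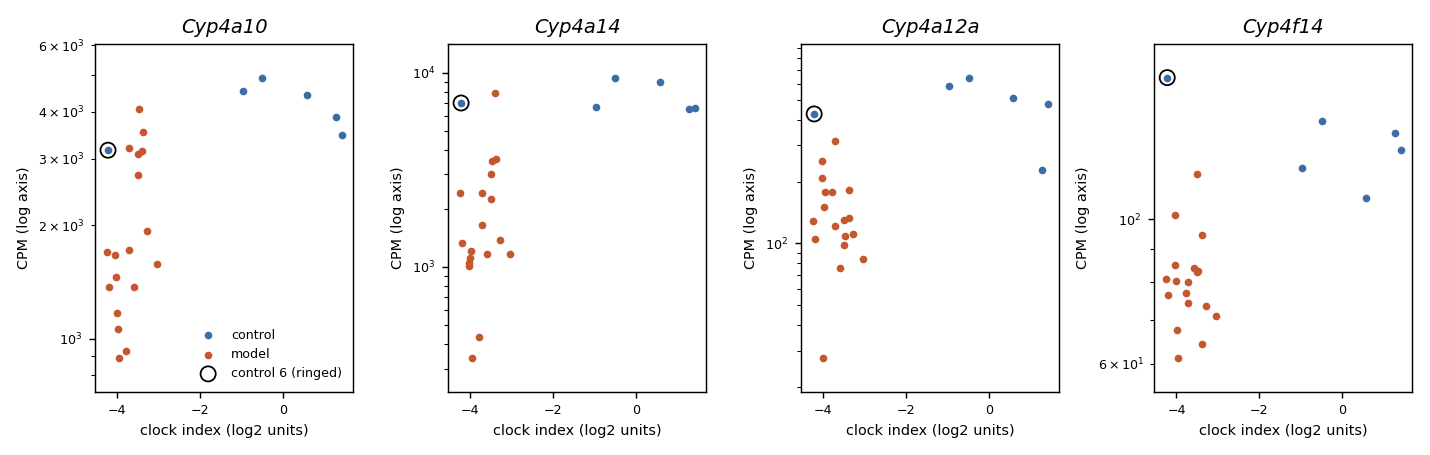
Level of 4 Cyp4 genes in CPM (log axis) against the clock index of each mouse, in log2 units. Points are mice, and the ring marks control 6, whose index of -4.22 lies within the range of the model mice, in part through Npas2 at 0 counts. Its Cyp4a14 and Cyp4a12a lie within the range of the other controls, its Cyp4f14 above it and its Cyp4a10 below it.

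Within the 18 model mice the index had a narrow range (SD 0.340), and 4 relations with it were tested. Cyp4a10 had a Pearson r of 0.522 (two-sided permutation p = 0.0272, adjusted 0.109) and a Spearman rho of 0.558 (p = 0.0175, adjusted 0.070). Cyp4a14 had an r of 0.381 (permutation p = 0.119, adjusted 0.238) and a rho of 0.482 (p = 0.0445, adjusted 0.089). Neither passed after adjustment. Without model mice 15 and 1, the farthest from the median index, r was 0.695 for Cyp4a10 and 0.618 for Cyp4a14.

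For Cyp4a12a the r was -0.117 (permutation p = 0.655, adjusted 0.873; rho -0.207, p = 0.410, adjusted 0.547; r without those mice -0.03). For Cyp4f14 it was 0.0111 (permutation p = 0.966, adjusted 0.966; rho -0.102, p = 0.689, adjusted 0.689; r without those mice 0.139). An index of Arntl minus Dbp alone gave Cyp4a10 an r of 0.632 (adjusted permutation p = 0.0238) and Cyp4a14 an r of 0.530 (adjusted permutation p = 0.0460), and with libraries scaled by their totals the rho of Cyp4a10 with the first index was 0.651 (adjusted permutation p = 0.0176). Whether these relations passed thus depended on the genes in the index, the scaling and the measure.

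Some members varied together among the model mice. The log2 levels of Cyp4a10 correlated at r = 0.870 with Cyp4a14 and at 0.921 with Cyp4a32 over the 18 model mice, given as a description, since each pair of values shares a library. Cyp4a10 and Cyp4a32 can also share reads, being 97.2% identical, with Cyp4a32 at 3.18% of the Cyp4a10 counts in model mice. The part of such reads in the 0.921 was not tested. Cyp4a12a correlated with Cyp4a12b at 0.651, with which it can share reads, and with Cyp4a14 at 0.025. Among the rest, Cyp4f15 and Cyp4v3 correlated at 0.798 and Cyp4f13 and Cyp4f14 at 0.515. Between Cyp4a members and the others, r ranged from -0.0276 (Cyp4a12a and Cyp4f14) to 0.787 (Cyp4a32 and Cyp4v3). Cyp4a10 and Cyp4v3 were at 0.733, Cyp4a14 and Cyp4f15 at 0.692, and Cyp4a14 and Cyp4f14 at 0.236.

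Genes whose levels followed each member most closely were sought among 9037 genes, by the correlation of log2 CPM over 24 mice after removal of the group means. For Cyp4a14 these were Retsat, the retinol saturase (r = 0.941), Dcaf6 (0.931), Acot1, a cytosolic acyl-CoA thioesterase (0.926), Cyp2c37 (0.912) and Ugt1a1, the bilirubin glucuronosyltransferase (0.900). Without model mouse 10, the r over the other 17 model mice was 0.954 for Retsat and 0.931 for Acot1. Retsat (log2 fold change -1.31) and Acot1 (-1.89) were also lower in model mice, whereas Cyp2c37 (0.12, edgeR adjusted p = 0.799) and Ugt1a1 (-0.18, edgeR adjusted p = 0.422) did not pass the test. For Cyp4a12a the closest were Mup19 (r = 0.731), Rbm8a (0.689), Mrps33 (0.663), Mup9 (0.661) and Mup21 (0.646), of which the Mup genes encode major urinary proteins, pheromone carriers secreted in quantity by male liver. Mup genes are near-identical copies and uncertain as single genes. For Cyp4f14 they were Timmdc1 (r = 0.804), Ddrgk1 (0.783), Plekha3 (0.742), Apoe (0.741) and Haao (0.741).

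Of 42 genes listed as PPARα targets outside the Cyp4 family, 25 were lower and 4 higher in model mice, against 28.8% and 31.2% of all genes, and the list's median was -0.30 on the log2 scale. Acot1 fell from 270 ± 90.4 to 72.7 ± 62.0 CPM (-1.89 on the log2 scale, SE 0.41, edgeR adjusted p = 0.000339), and Fabp1, the fatty acid carrier and most abundant of the list per kilobase, fell from 4944 ± 1290 to 3704 ± 852 CPM (-0.42, SE 0.15, edgeR adjusted p = 0.0196). Angptl4, an inhibitor of lipoprotein lipase, fell by 1.37 on the log2 scale (edgeR adjusted p = 2.09e-07) and the groups did not overlap. Cidea, a lipid droplet protein of brown fat and steatotic liver, rose from 0.112 ± 0.057 to 49.4 ± 24.5 CPM, an 8.73 difference on the log2 scale (edgeR adjusted p = 6.72e-11). Cpt1a, the gate to mitochondrial fatty acid oxidation, did not pass the test (-0.20, edgeR adjusted p = 0.145).

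The calls in this list depended on the scaling and on the clock genes. With library totals alone 9 were lower and 11 higher, against 8.95% and 53.9% of all genes, and the median was 0.02. With the clock index as a covariate 15 were lower and 2 higher, against 17.4% and 21.1% of all genes. With that index without Npas2 5 were lower and 1 higher, against 12.5% and 14.7%. Lower calls were thus no more frequent in that last fit than over all genes. Angptl4 and Cpt1a are named as examples chosen after their values were seen.

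**Figure D5:**
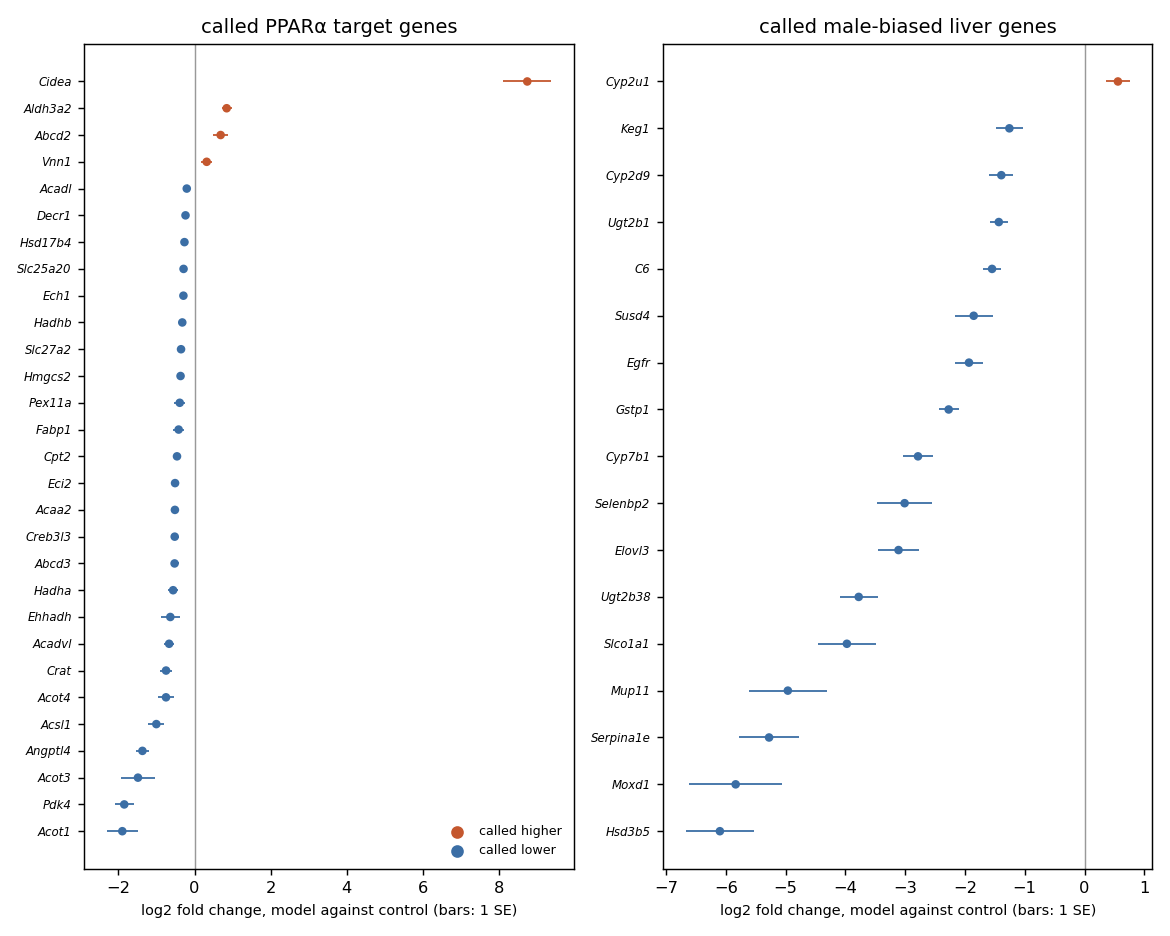
Log2 fold changes, model against control, of the called genes among the PPARα targets (25 lower, 4 higher) and the male-biased liver genes (16 lower, 1 higher), with bars of 1 standard error. Blue marks genes called lower and red genes called higher. Most of the lower PPARα targets lie between -1 and 0, whereas all 16 lower male-biased genes lie below -1.

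Ppara itself was at 92.3 ± 27.6 CPM in controls and 80.8 ± 29.2 CPM in model mice and did not pass the test (log2 fold change -0.19, SE 0.25, edgeR adjusted p = 0.532). Of 18 genes listed as its partners and regulators, Ppara included, 10 were lower and 1 higher, against 28.8% and 31.2% of all genes. Under scaling by library totals 4 were lower and 4 higher, against 8.95% and 53.9% of all genes. In the fit with the clock index 6 were lower and 1 higher, against 17.4% and 21.1%. Pparg, the adipocyte member of the family that steatotic liver also expresses, rose from 13.8 ± 3.47 to 36.1 ± 7.75 CPM (1.39, SE 0.16, edgeR adjusted p = 4.97e-08). Lpin1, a phosphatidate phosphatase and coactivator, fell from 111 ± 114 to 18.7 ± 3.2 CPM (-2.57, edgeR adjusted p = 7.26e-08), with controls as variable as their mean. Hnf4a, the master regulator of hepatocyte genes and the most abundant of the list per kilobase, fell by 0.93 (edgeR adjusted p = 5.66e-09) without overlap.

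Downstream of omega-hydroxylation, 13 of 23 genes were lower and 3 higher, against 28.8% and 31.2% of all genes, and their median was -0.21 on the log2 scale. Under scaling by library totals 4 were lower and 8 higher, against 8.95% and 53.9% of all genes. In the fit with the clock index 5 were lower and 2 higher, against 17.4% and 21.1%. With that index without Npas2 2 were lower and 1 higher, against 12.5% and 14.7%, so lower calls were no more frequent there than over all genes. Aldh3a2, the fatty aldehyde dehydrogenase that follows the Cyp4 enzymes, went the other way, from 738 ± 185 to 1324 ± 199 CPM (0.84, SE 0.13, edgeR adjusted p = 4.89e-06). It is named after its values were seen. Acot3, a peroxisomal thioesterase, fell by 1.48 and Acsl1, the main long-chain acyl-CoA synthetase of liver, by 1.00 on the log2 scale (edgeR adjusted p = 0.00527 and 0.000251). Acaa1b, a peroxisomal thiolase and the most abundant of the list per kilobase, did not pass the test (0.12, edgeR adjusted p = 0.576). Of 7 genes that supply P450 enzymes with electrons and heme, 2 were lower and 2 higher: Por, the reductase that all microsomal P450 enzymes need, fell from 812 ± 210 to 403 ± 97.6 CPM (-1.01, edgeR adjusted p = 2.90e-06), and Hmox1, which breaks heme down, rose from 13.7 ± 3.71 to 51.2 ± 17.6 CPM (1.90, edgeR adjusted p = 2.95e-07).

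Among 11 tested genes of the lipid mediators that Cyp4 enzymes act on, Cyp4f18 included, 4 were higher and 4 lower, against 31.2% and 28.8% of all genes. Under scaling by library totals 6 were higher and 3 lower, against 53.9% and 8.95%. Ptgs1, the constitutive cyclooxygenase, rose by 1.62 on the log2 scale (edgeR adjusted p = 1.09e-08), and Ephx2, the soluble epoxide hydrolase, fell by 0.66 (edgeR adjusted p = 1.45e-05). The genes of the leukotriene pathway were mixed: Alox5ap, which presents arachidonic acid to 5-lipoxygenase, was higher (2.27, edgeR adjusted p = 2.48e-09), the leukotriene B4 receptors Ltb4r1 (-0.87, edgeR adjusted p = 9.47e-06) and Ltb4r2 (-1.22, edgeR adjusted p = 7.57e-06) were lower, and Lta4h and Ltc4s did not pass the test. They are named after their values were seen, and the part of the macrophage markers, which rose in 15 of 16 cases, was not tested.

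Genes that are higher in male than in female liver, the class to which Cyp4a12a and Cyp4a12b belong, were lower in 16 of 18 cases and higher in 1, against 28.8% and 31.2% of all genes, and the list's median was -2.53 on the log2 scale. Their groups did not overlap in 11 of 18 cases, all with model mice lower, against 6.02% of all genes. Hsd3b5, a male-specific steroid dehydrogenase, fell from 80.6 ± 20.6 to 1.23 ± 2.26 CPM (-6.10, SE 0.58, edgeR adjusted p = 4.94e-09), and Serpina1e, a serine protease inhibitor, from 14610 ± 2546 to 377 ± 381 CPM (-5.28, edgeR adjusted p = 6.95e-09). Mup20 did not pass the test (-0.10, edgeR adjusted p = 0.769). With the clock index as a covariate 14 of 18 were lower, against 17.4% of all genes, and with that index without Npas2 12 of 18, against 12.5%.

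Of 11 tested female-biased genes 5 were higher and 5 lower, against 31.2% and 28.8% of all genes. Cyp2b9 rose from 0.078 ± 0.147 to 73.8 ± 48.9 CPM and Cyp2b13 from 0.0113 ± 0.0175 to 7.73 ± 9.17 CPM (edgeR adjusted p = 9.98e-08 and 7.47e-06). Of 12 genes of growth hormone signalling 6 were lower and 1 higher, against 28.8% and 31.2% of all genes. Scaled by library totals 4 were lower and 4 higher, against 8.95% and 53.9% of all genes. In the fit with the clock index 3 were lower and 2 higher, against 17.4% and 21.1%. The lower ones included Socs2, a feedback inhibitor that pulses of growth hormone induce (-1.50, edgeR adjusted p = 0.00154), and Igfals (-1.04, edgeR adjusted p = 1.26e-06). For comparison, Cyp4a12a and Cyp4a12b were at -1.74 and -1.83 beside a median of -2.53 for the male-biased list, and at -2.01 and -1.65 beside a median of -1.8 with the clock index as a covariate, a difference that was not tested.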

How the data were processed

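Polyadenylated liver RNA was enriched with oligo(dT) and sequenced as DNA nanoballs, per the labels' protocols. The authors deposited raw read counts per Ensembl gene for 24 libraries, with positions and an exonic Length (another unit, in bases) per the file headers. The build was GRCm39 per the submitters' processing notes. The aligner, the counter, the annotation release and the use of strand were not given in the sources used here; reads of antisense or near-identical genes may be misassigned. Symbols matched 51498 of 78298 IDs, which held 99.6% of counts.

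Groups came from the labels, which give 6 control and 18 model mice. No pair of libraries was alike within sampling noise (168 pairs, smallest chi-square per degree of freedom 17). The test was edgeR 4.0.16 (R 4.3.3) quasi-likelihood with TMM factors, default filter, all 24 libraries and the group alone; a call is a Benjamini-Hochberg adjusted p below 0.05 over all genes tested. Log2 CPM used a prior count of 2. The ratio test added 0.5 to counts. The edgeR script was tested on simulated data. Permutation tests used scipy 1.17.1 with numpy 2.4.6 and pandas 2.3.3; for correlations, resampling was random. Figures used matplotlib 3.10.9, coding alignments biopython 1.88. Sequences come from GENCODE M21 transcripts and no GRCm38 coordinate is given. Alternatives included DESeq2 1.42.0 and limma-voom (limma 3.58.1), other scalings and filters, the clock index (without Npas2 as well, chosen after seeing the data), a replicate block and each library left out.

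The 10 members, the gene lists and the tests were chosen with earlier results of these data known. Genes named beside the members were drawn from the 2 called genes of each list with the largest change at a mean of at least 5 CPM, the most abundant per kilobase, and the 5 genes most like Cyp4a14, Cyp4a12a and Cyp4f14; others are named as examples, after their values were seen. Some list genes are not reported here.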

Additional observations from a re-analysis of the deposited data

Results flagged for a closer look

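Among 18 sets of 6 control values examined with Dixon's ratio, 2 held a mouse far from the other 5, where chance alone gives about 5% of sets. For Cyp4a32, control 3 was highest, at 120.4 CPM. For Dbp, control 6 was highest, at 40.49 CPM.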

How the results depend on the processing

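Over RLE factors, DESeq2, limma-voom and no expression filter, the counts of Cyp4a (5 of 6 lower) and Cyp4f genes (2 of 3 lower) and the side of the threshold of every member were as reported. With each of the 24 libraries left out in turn these counts did not change (5 to 5 and 2 to 2 lower, 0 to 0 higher), and the log2 ratio of Cyp4a14 to Cyp4f15 ranged from -2.377 to -2.14, Cyp4a14 from -2.145 to -1.806, Cyp4a10 from -1.087 to -0.9452, Cyp4f15 from -0.02012 (without control 1; -0.003833 without model 10) to 0.04651, Cyp4a32 from -0.3873 to -0.1316 (without control 3) and Cyp4v3 from -0.3263 to -0.2376. The clock index as covariate left 2 called Cyp4a genes, as did that index without Npas2 (2, chosen after seeing the data), with Cyp4f15 at -0.0362 and -0.0422. Beyond the described levels of control 6, a comparison with control 6 alone was also run. It is not given, since it rests on 1 mouse chosen by its own clock genes. Library totals alone gave 1 higher Cyp4f gene and Cyp4v3 at 0.04226. Cyp4v3 also lost its call with a filter of 1 CPM in 6 libraries (adjusted p = 0.0507) and at a threshold of 0.01. Summing near-identical copies gave no count of calls. Replicate numbers are shared between the groups but do not pair the mice (correlations of deviations -0.293 to 0.0674, and 0 of 6 controls closest to their own number); with the replicate block 6 Cyp4a genes were lower, Cyp4a32 at -0.56 (edgeR adjusted p = 0.00589) and Cyp4f15 at -0.02793. Over all genes, calls fell from 10480 to 6718 with the covariate and 4738 with that index without Npas2; lower calls fell from 5035 to 1562 with library totals alone, and 3378 with the block.

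The relations of Cyp4a10 and Cyp4a14 with Arntl minus Dbp alone passed (r = 0.632 and 0.53), and so did the rho of Cyp4a10 with the first index under library totals (0.651, adjusted permutation p = 0.0176). With library totals alone, medians of the lists on the log2 scale were -0.39 for Cyp4f, 0.0218 for PPARα targets, -0.0185 for PPARα regulators, 0.115 for genes downstream of omega-hydroxylation, 0.201 for growth hormone signalling, 0.307 for clock genes (0.0678 with upper-quartile factors) and -0.34 for hepatocyte markers. With the clock covariate they were 1.43 for other Cyp4 genes, -0.128 for P450 electron supply, -0.0441 for lipid mediators, -1.8 for male-biased genes, -0.48 for clock genes, 3.75 for neutrophil, 2.25 for B cell and 2.13 for stellate markers. The cause was not tested. Depth did not limit the members, which had at least 468 counts in each mouse; the number of controls, 6, did.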
